A study of Mus musculus with 6 samples.

Results

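The 10 genes described here carry out or control fatty acid synthesis: Fasn, Acaca, Acacb, Scd1, Acly, Elovl6, Srebf1, Mlxipl, Thrsp and Me1. They were taken by symbol from a table of 54532 mouse genes, and each had 1 row. The table held RNA-seq values of whole livers from 12-day-old C57BL/6 mice, an age at which pups still suckle. By the labels, 3 samples were Tbx21flox/flox Foxp3GFP-CreRosa26loxP-Stop-loxP-YFP and 3 were Foxp3GFP-CreRosa26loxP-Stop-loxP-YFP. All 6 thus carried the GFP-Cre fusion driven by Foxp3, a gene of regulatory T cells, and the Rosa26 YFP reporter, so hepatocytes were not the cells aimed at by the Cre. The 6 columns of values bear only running numbers and are tied to no genotype. They are called liver 1 to liver 6 here after those numbers. No genotype contrast was made, and a difference between genotypes and other variation from liver to liver cannot be told apart in these values.

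Fatty acid synthesis starts from citrate, which the liver cell exports from mitochondria and cleaves to acetyl-CoA. Acetyl-CoA is carboxylated to malonyl-CoA, the fatty acid synthase builds palmitate from both with electrons from NADPH, and an elongase and a desaturase then lengthen and desaturate the chain. In rodent liver the pathway is known to be low during suckling, when milk supplies fat, and to be induced at weaning onto a diet rich in carbohydrate, through the transcription factors SREBP-1c and ChREBP. These points are background and were not measured here.

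The starts of the genes are shown first, because SREBP-1, ChREBP and the general factors NF-Y and Sp1 are known to act there. RefSeq (GRCm38.p6) gave a promoter for 9 of the 10 genes, with 13 start sites. Scd1 was not matched. The only window of Acaca, before base 84195438, and that of Acacb, before base 114165518, lay inside the genes. The bases before their listed gene starts, 84129672 and 114146535, were not searched. The 250 bases before each start were searched on both strands for 4 motifs: the core TCACNCCAC of a sterol regulatory element, the E-box CACGTG, the CCAAT box and the GC box GGGCGG. Positions are counted back from the first base of the gene, which is base 0, and give the 5′ end of the match as printed. Capitals mark a motif or its reverse complement. Fasn (chr11:120824548-120824797, minus strand) and Acly (chr11:100528001-100528250, minus strand) are printed as 2 enzymes with different motifs. Srebf1 at its most downstream start (chr11:60210472-60210721, minus strand) and Mlxipl at its upstream start (chr5:135089640-135089889, plus strand) are printed as the 2 regulators.
Fasn: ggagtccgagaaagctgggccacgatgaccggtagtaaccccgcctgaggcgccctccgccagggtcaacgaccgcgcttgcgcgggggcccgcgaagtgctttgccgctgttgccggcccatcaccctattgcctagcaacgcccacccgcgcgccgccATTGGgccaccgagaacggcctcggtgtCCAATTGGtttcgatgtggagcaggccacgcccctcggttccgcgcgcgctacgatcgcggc
Acly: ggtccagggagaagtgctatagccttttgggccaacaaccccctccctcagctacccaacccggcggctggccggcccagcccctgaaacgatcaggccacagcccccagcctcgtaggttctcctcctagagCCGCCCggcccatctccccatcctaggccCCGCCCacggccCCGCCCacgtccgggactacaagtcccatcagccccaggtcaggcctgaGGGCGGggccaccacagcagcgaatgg
Srebf1: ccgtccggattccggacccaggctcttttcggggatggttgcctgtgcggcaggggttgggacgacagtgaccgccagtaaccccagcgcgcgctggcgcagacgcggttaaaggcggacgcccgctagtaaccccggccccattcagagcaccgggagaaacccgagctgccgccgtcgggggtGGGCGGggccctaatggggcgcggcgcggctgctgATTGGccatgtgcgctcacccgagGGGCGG
Mlxipl: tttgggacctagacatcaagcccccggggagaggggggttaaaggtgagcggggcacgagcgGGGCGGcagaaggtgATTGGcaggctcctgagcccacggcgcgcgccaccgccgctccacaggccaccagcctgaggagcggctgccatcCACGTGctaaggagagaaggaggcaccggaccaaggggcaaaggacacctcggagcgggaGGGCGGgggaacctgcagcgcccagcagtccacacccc
The Fasn window held CCAAT boxes at -90, -62 and -59, the last 2 of which overlap, and no GC box. The Acly window held GC boxes at -117, -88, -76 and -27 and no CCAAT box. The Srebf1 window held both, a CCAAT box at -30 and GC boxes at -65 and -6. The Mlxipl window held an E-box at -98, a CCAAT box at -173 and GC boxes at -188 and -38.

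Over the 13 windows, the CCAAT box was found in 7, from 6 genes, and the GC box in 5, from 4 genes. Among 32851 RefSeq windows of the same length, 33.8% held a CCAAT box and 32.7% a GC box. The E-box was found in 1 of the 13 windows and in 6.02% of all windows. The sterol element core was found in 1, the window of a downstream Mlxipl start, and in 1.05% of all windows. A match is a match of letters only, and a window without a match says nothing about binding.

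All 10 genes were measured above 0 in all 6 livers. Levels are given in FPKM, fragment counts scaled to the length of the gene and the size of the library, so that genes of unlike length can be set side by side. The libraries held 14859569 to 18796842 fragments counted to genes. A median of at least 1 FPKM was reached by 9 of the 10 genes and by 11082 genes of the table. Whole-liver RNA cannot tell fewer cells of a type from less RNA per cell. All 6 hepatocyte markers were high, with medians from 769.0 FPKM for Cps1 to 49073 for Alb, but they varied unequally. Alb lay between 47784 and 52841 FPKM and its highest liver was 1.11 times its lowest. Fabp1 ran from 1237 FPKM in liver 3 to 2577 in liver 1, and Cps1 from 327.8 FPKM in liver 1 to 886.4 in liver 5. The summed markers ranged from 67903 FPKM in liver 6 to 81320 in liver 1, and their part in the results was not tested.

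**Figure D1:**
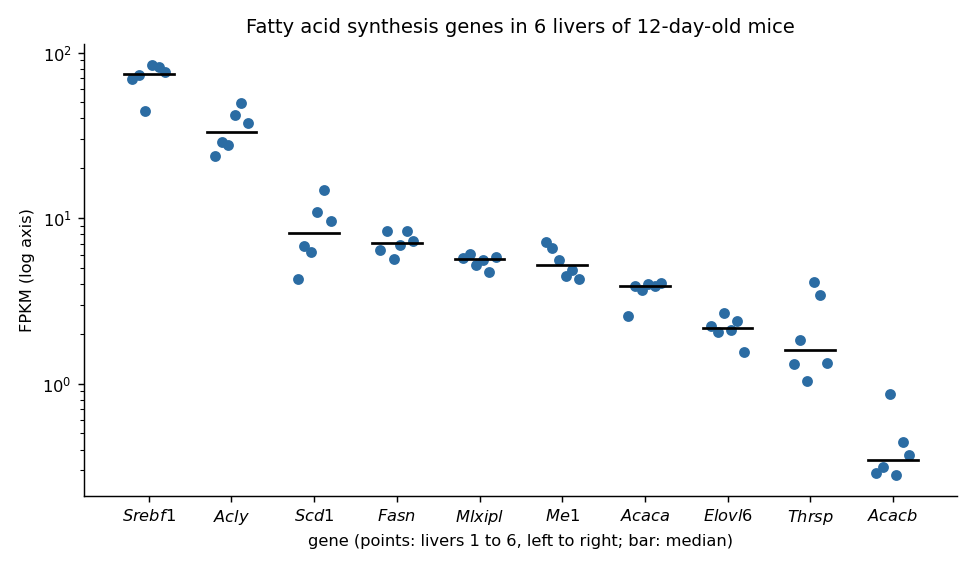
FPKM of each gene on a log axis, with 1 point per liver (liver 1 to liver 6 from left to right within a gene) and a bar at the median. Srebf1 stands at the top with a median of 74.4 FPKM and Acacb at the bottom with 0.343 FPKM.

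The transcript of the regulator SREBP-1 was the most abundant of the 10, and that of ChREBP was lower in each liver. Srebf1 (ENSMUSG00000020538, chr11:60199089-60222581, minus strand) encodes SREBP-1, the membrane-bound factor that insulin activates. It measured 69.8, 72.9, 44.7, 84.8, 81.9 and 76.0 FPKM in livers 1 to 6. Liver 3 lay apart below the other 5. Mlxipl (ENSMUSG00000005373, chr5:135089890-135138382, plus strand) encodes the glucose-responsive factor ChREBP. It measured 5.72, 6.06, 5.18, 5.59, 4.74 and 5.78 FPKM in livers 1 to 6. No liver stood apart, and its highest liver was 1.28 times its lowest. Srebf1 exceeded Mlxipl in 6 of 6 livers, by a median ratio of 12.7 (8.63 to 17.3). These are gene-level values, so the SREBP-1a and SREBP-1c transcripts of Srebf1 are not separated.

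The paralog of each factor, Srebf2 or Mlxip, had a lower transcript level than the factor itself. Srebf2, whose product mainly drives cholesterol synthesis, measured 12.6, 12.4, 7.91, 11.3, 11.3 and 11.2 FPKM in livers 1 to 6. Srebf1 over Srebf2 had a median of 6.35 (5.55 to 7.49), and both genes had their lowest value in liver 3. Mlxipl over its paralog Mlxip had a median of 3.64 (2.51 to 5.599). Mlx, on the list of other factors at lipogenic promoters, was higher than Mlxipl, with a median of 11.5 FPKM (10.3 to 12.8). Insig2 and Insig1 encode proteins that hold SREBPs in the endoplasmic reticulum. Their ratio, Insig2 over Insig1, was above 1 in 6 of 6 livers with a median of 1.82 (1.26 to 2.54).

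The citrate and NADPH side of the pathway was represented by 2 enzymes at unlike levels. Acly (ENSMUSG00000020917, chr11:100476353-100528000, minus strand) encodes ATP citrate lyase, which cleaves cytosolic citrate to acetyl-CoA. It measured 23.9, 28.7, 27.8, 41.8, 49.6 and 37.3 FPKM in livers 1 to 6. Livers 4, 5 and 6 were the 3 highest. Me1 (ENSMUSG00000032418, chr9:86581371-86695953, minus strand) encodes the cytosolic malic enzyme, a source of NADPH. It measured 7.17, 6.62, 5.55, 4.47, 4.89 and 4.31 FPKM in livers 1 to 6. Here livers 1, 2 and 3 were the 3 highest. The share of all expressed genes with such a split of livers was not counted, and no liver number is tied to a genotype. The citrate carrier Slc25a1 had a median of 40.8 FPKM, close to the 33.0 FPKM of Acly, while Idh1, another cytosolic source of NADPH, exceeded Me1 by a median ratio of 17.9 (13.2 to 22.7). The pentose phosphate enzymes G6pdx and Pgd, also NADPH sources, had medians of 3.65 and 7.71 FPKM.

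The synthase and both carboxylases had lower medians than Acly, and the carboxylase genes differed in level. Fasn (ENSMUSG00000025153, chr11:120805846-120824547, minus strand), the fatty acid synthase, measured 6.46, 8.41, 5.67, 6.87, 8.34 and 7.24 FPKM in livers 1 to 6. Livers 2 and 5 were the highest and liver 3 the lowest. Acaca (ENSMUSG00000020532, chr11:84129672-84401651, plus strand) encodes acetyl-CoA carboxylase 1, which makes the malonyl-CoA used for synthesis. It measured 2.58, 3.90, 3.68, 4.01, 3.90 and 4.04 FPKM in livers 1 to 6. Liver 1 lay below the other 5, which spanned 3.68 to 4.04 FPKM. Acacb (ENSMUSG00000042010, chr5:114146535-114250761, plus strand) encodes acetyl-CoA carboxylase 2, whose malonyl-CoA restrains fatty acid entry into mitochondria. It measured 0.289, 0.314, 0.862, 0.280, 0.444 and 0.373 FPKM in livers 1 to 6. Liver 3 was the highest, with an exact Poisson 95% interval of 0.724 to 1.02 FPKM that does not reach the highest other liver. Acaca exceeded Acacb in 6 of 6 livers by a median ratio of 9.88 (4.27 to 14.3). This ratio depends on the lengths used, since with the longest transcript of each the medians were 6.995 and 0.376 FPKM.

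The desaturase and the elongase of the pathway also had lower medians than Acly. Scd1 (ENSMUSG00000037071, chr19:44394451-44407709, minus strand) encodes the desaturase that makes oleate and palmitoleate. It measured 4.29, 6.79, 6.24, 10.9, 14.8 and 9.55 FPKM in livers 1 to 6. Livers 4, 5 and 6 were the 3 highest, as for Acly, a split that was not counted over all genes. Elovl6 (ENSMUSG00000041220, chr3:129532355-129638495, plus strand) encodes the elongase of palmitate. It measured 2.24, 2.05, 2.67, 2.11, 2.40 and 1.55 FPKM in livers 1 to 6. Liver 6 was the lowest and liver 3 the highest.

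Thrsp (ENSMUSG00000035686, chr7:97412938-97417730, minus strand) encodes Spot 14, a protein induced with lipogenesis by thyroid hormone and carbohydrate. It measured 1.32, 1.84, 1.04, 4.13, 3.43 and 1.34 FPKM in livers 1 to 6. Livers 4 and 5 lay above the other 4, and the Poisson interval of liver 4 was 3.52 to 4.81 FPKM, on 164 fragments. Its paralog Mid1ip1 exceeded it in 6 of 6 livers, and Thrsp over Mid1ip1 had a median of 0.144. Such intervals cover counting error only.

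Ordered by median, the genes ran Srebf1 (74.4 FPKM), Acly (33.0), Scd1 (8.17), Fasn (7.05), Mlxipl (5.66), Me1 (5.22), Acaca (3.90), Elovl6 (2.17), Thrsp (1.59) and Acacb (0.343). Between neighbours in that order, the ranges over 6 livers did not overlap for Acly above Scd1, Me1 above Acaca and Thrsp above Acacb. The other 6 neighbours overlapped. Srebf1 was still above Acly, Fasn above Mlxipl and Acaca above Elovl6 in 6 of 6 livers each, whereas Mlxipl was above Me1 in only 2 of 6. The order in the middle depends on the length used. The table divides by all annotated exon bases, 17074 for Acaca, of which its longest transcript holds 9513. With the longest transcript in place of that length, the medians became 8.65 FPKM for Mlxipl, 8.18 for Scd1, 7.68 for Fasn, 6.995 for Acaca and 6.10 for Me1. Exons of Srebf1, Mlxipl, Me1 and Elovl6 overlap a gene on the other strand, and the strand setting of the counting is not given in the sources used here. The highest of those 4 overlapping genes was Rai1 beside Srebf1, at 1.76 to 2.42 FPKM.

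**Figure D2:**
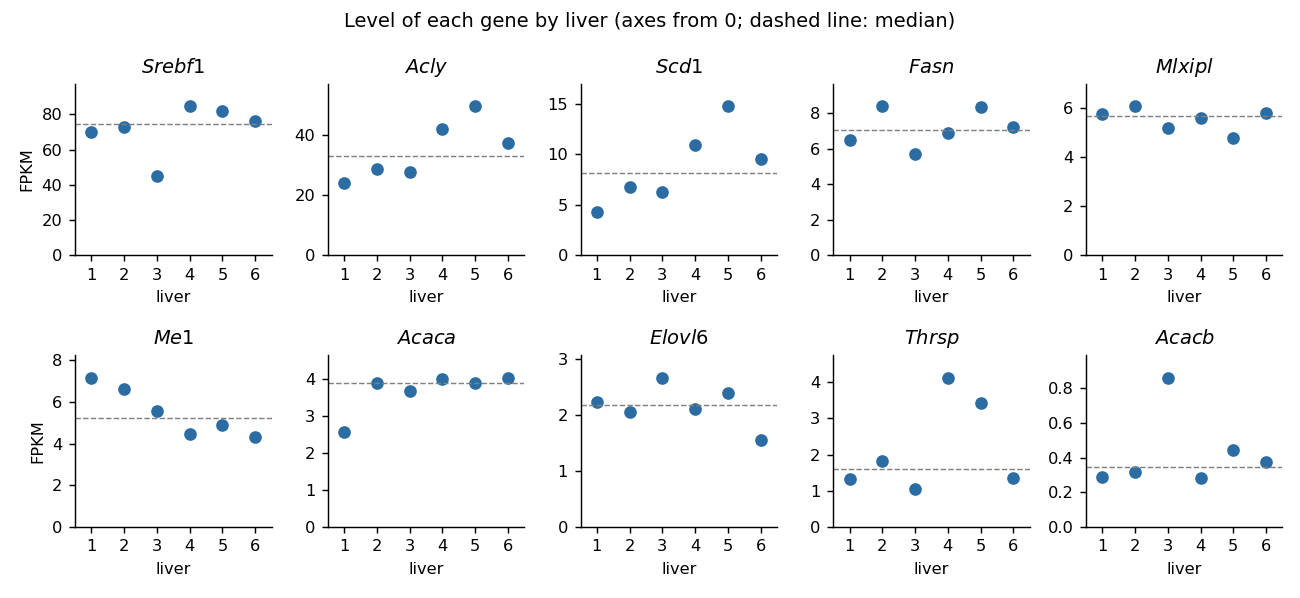
FPKM of each gene against liver number, on linear axes that start at 0, with a dashed line at the median. Acly and Scd1 share the order of their livers, Srebf1 is low and Acacb high in liver 3, and Thrsp is high in livers 4 and 5.

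The genes for polyunsaturated fatty acids stood far above those for palmitate and oleate. Fads2 and Fads1, the desaturases of polyunsaturated fatty acids, had medians of 359.2 and 181.8 FPKM. Fads2 exceeded Scd1 by a median ratio of 43.1 (26.6 to 72.5), and Fads1 exceeded it by 18.7 (14.3 to 45.4). The elongases of polyunsaturated chains were likewise high. Elovl2 exceeded Elovl6 by a median ratio of 113.0 (85.2 to 163.6) and Elovl5 exceeded it by 74.6 (45.4 to 108.9). Scd2, a desaturase known as the main one in neonatal mouse liver, measured 6.73, 6.25, 9.78, 6.40, 5.75 and 5.89 FPKM in livers 1 to 6. Scd1 was above Scd2 in 4 of 6 livers and below it in livers 1 and 3. Scd3 was listed at 0 in all livers.

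Fatty acid oxidation and ketogenesis, which burn milk fat in suckling animals, were represented at higher levels. All 12 genes on the oxidation list had a median of at least 1 FPKM, and the median over the list was 68.9 FPKM, against 5.44 FPKM for the 10 synthesis genes. Cpt1a, the entry step of fatty acids into mitochondria, exceeded Acaca by 31.3 (28.2 to 40.6). That ratio depends on the length used for Acaca, whose median was 3.90 FPKM as listed and 6.995 with its longest transcript. The 14 genes of glycerolipid assembly and export, among them Apob and Dgat2, had a list median of 15.03 FPKM. The 8 cholesterol synthesis genes had a list median of 4.83 FPKM, near that of the 10 genes.

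**Figure D3:**
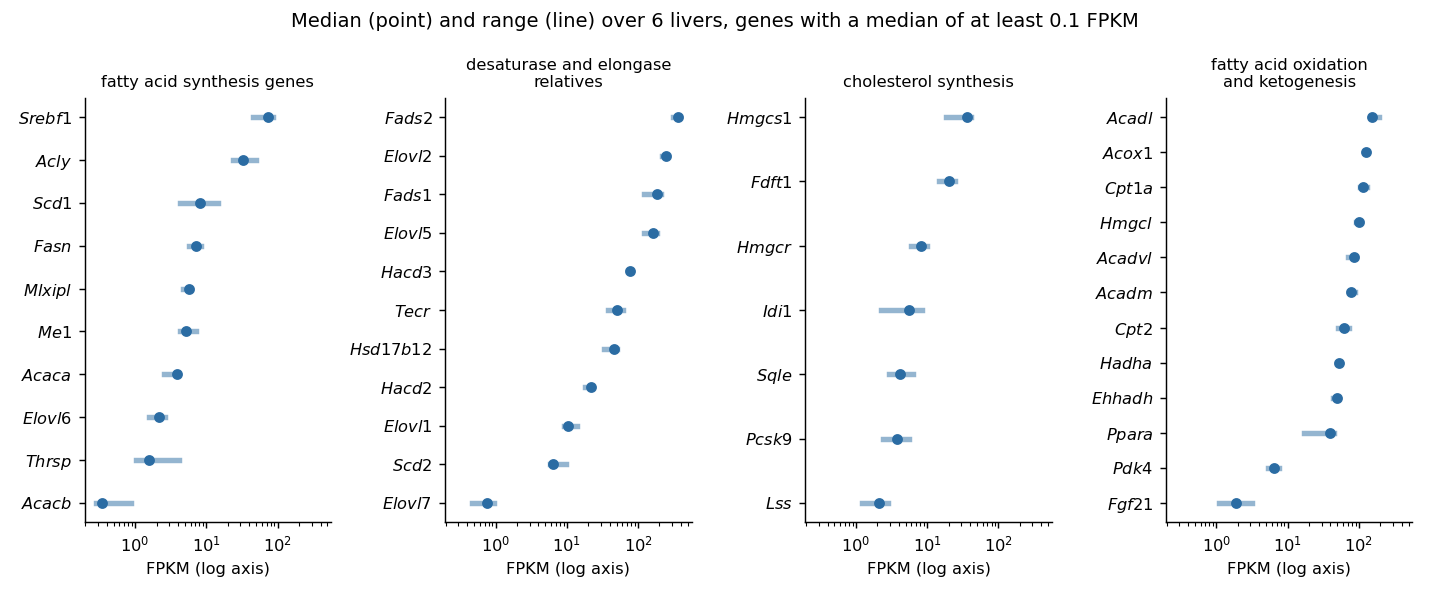
Median (point) and lowest to highest FPKM over 6 livers (line) on log axes, for the 10 genes, the other desaturases and elongases, cholesterol synthesis, and oxidation with ketogenesis. Only genes with a median of at least 0.1 FPKM are drawn. Fads2 has the highest median drawn, 359.2 FPKM, against 7.05 FPKM for Fasn.

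The 10 genes differed widely in how much they varied between livers. The highest liver was 3.96 times the lowest for Thrsp, 3.44 times for Scd1, 3.07 times for Acacb and 2.07 times for Acly. It was 1.90 times for Srebf1, 1.72 for Elovl6, 1.66 for Me1, 1.57 for Acaca, 1.48 for Fasn and 1.28 for Mlxipl. The ratios of Acacb and Srebf1 rest on liver 3, without which they were 1.59 and 1.22. Other ratios also fell when 1 liver was left out. Without liver 1 that of Acaca was 1.10 and that of Scd1 2.37, and without liver 6 that of Elovl6 was 1.30. Of the 11082 genes with a median of at least 1 FPKM, 97.6% had a smaller ratio than Thrsp, 53.3% a smaller one than Fasn and 22.0% a smaller one than Mlxipl. A ratio of at least 2 was found in 4 of the 10 genes (40%), beside 15.2% of those 11082 genes. Acacb is among the 4, but with a median of 0.343 FPKM it is not among the 11082. The median ratio was 1.81 for the 10, Acacb included, and 1.45 for the 11082. Counting error is larger for Thrsp, on 38 to 164 fragments a liver, and Acacb, on 49 to 138, than for Scd1, on 381 to 1220. The summed FPKM of the 10 genes had a median of 142.5, from 103.3 in liver 3 to 174.4 in liver 5.

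Livers 1 and 3 stood apart from the rest over the whole table. On the first principal component of the expressed genes (37.7% of the variance) liver 3 lay farthest out, and on the second (33.1%) liver 1 did. A microRNA gene of very short length, Gm23935, reached 122687 FPKM in liver 1 and 21293 to 55550 FPKM in the others. Of the 10 genes, 3 had their lowest value in liver 1 (Acly, Scd1 and Acaca) and 3 in liver 3 (Srebf1, Fasn and Thrsp). Among all 11082 expressed genes, 25.9% had their lowest value in liver 1 and 26.3% in liver 3. Of 8 adipocyte markers, Fabp4 alone had a median of at least 1 FPKM, with 34.2 FPKM in liver 3 and 6.36 to 10.2 in the others. Lep, Retn and Ucp1 were at 0 in all livers, Adipoq reached no more than 0.08 FPKM, and the summed markers ranged from 6.75 FPKM in liver 1 to 34.3 in liver 3. Summed red blood cell markers ranged from 313.8 FPKM in liver 6 to 1229 in liver 4. Their part in the results was not tested.

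The 10 genes did not move as a single block, and their positive and negative correlations were split much as over all expressed genes. Co-variation was measured as Pearson's r of log2(FPKM + 1) over the 6 livers, with an exact two-sided permutation test over all 720 pairings, for which 0.00139 is the smallest p possible. Of the 45 pairs among the 10 genes, 22 had a positive r (48.9%) and 23 a negative one, with a median of -0.07. Over the 110775 pairs of the 10 genes with every expressed gene, 50.6% had a positive r, with a median of 0.009. An exact p under 0.05 was reached by 2 pairs, Scd1 with Acly and Acaca with Me1. Between the 10 genes and every expressed gene, 8.13% of 110775 pairs reached it. After Benjamini-Hochberg adjustment over those 110775 pairs, 0 pairs had an adjusted permutation p under 0.05, and the lowest was 0.493. Counted by Spearman's rho with its exact p, 4 of the 45 pairs fell under 0.05. The share of all 110775 pairs under 0.05 by rho was not computed, so this count has no background beside it.

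**Figure D4:**
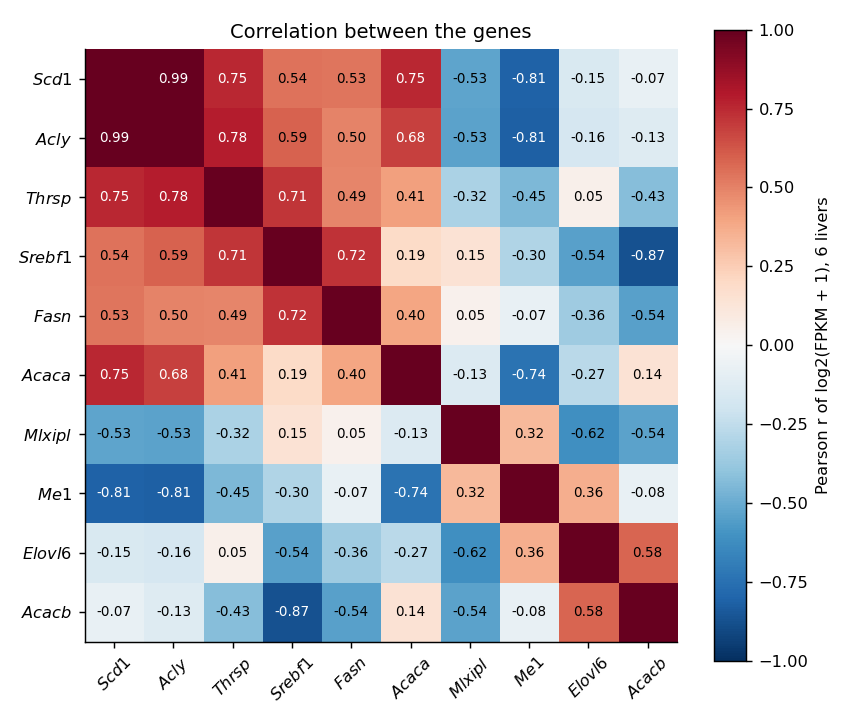
Pearson's r of log2(FPKM + 1) over 6 livers for each pair of the 10 genes, from -1 (blue) to 1 (red), with the value printed in each cell. Scd1 with Acly is the highest at 0.99, and Acacb with Srebf1 the lowest at -0.87.

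Scd1 and Acly had the same order over the livers. Their r was 0.992 (exact permutation p = 0.00139, adjusted p = 0.493), and rho was 1 (exact p = 0.00278). Without livers 1 and 5, the 2 farthest from the Scd1 median, r was 0.998. With each liver left out in turn it ran from 0.986 to 0.997. For scale, 11.4% of 11082 genes reached an exact p under 0.05 with Scd1, and 11.4% with Acly.

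Acaca and Me1 ran in opposite directions. Their r was -0.736 (exact permutation p = 0.0347, adjusted p = 0.575), and rho was -0.829 (exact p = 0.0583). Without livers 1 and 3 r was -0.752, and leaving out 1 liver at a time moved it from -0.961 to -0.553. The call was lost without liver 1 (exact permutation p = 0.342), and likewise without liver 4 (0.15), 5 (0.075) or 6 (0.108). In TPM, each liver scaled to the same FPKM sum, r was -0.251 (exact permutation p = 0.640).

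Neither Fasn nor Srebf1 reached p under 0.05 by Pearson's r with any of the other 9 genes. Fasn with Srebf1 had r = 0.721 (exact permutation p = 0.0764, adjusted p = 0.633) and rho = 0.486 (exact p = 0.356). Without livers 2 and 3 r was 0.532, and without liver 3 alone it was 0.179. Of this pair, the regulator is the more abundant in 6 of 6 livers, by a median ratio of 10.2. By rank, Srebf1 did reach it with 3 genes: Scd1, Acly and Thrsp. How many of all genes reach it with Srebf1 by rank was not computed. With Scd1 it had r = 0.545 (exact permutation p = 0.276, adjusted p = 0.782) and rho = 0.886 (exact p = 0.0333), with r = 0.794 without livers 1 and 5. With Acly it had r = 0.593 (exact permutation p = 0.193, adjusted p = 0.726) and rho = 0.886 (exact p = 0.0333), with r = 0.756 without livers 1 and 5. Srebf1 with Thrsp had r = 0.714 (exact permutation p = 0.0736, adjusted p = 0.630) and rho = 0.943 (exact p = 0.0167), with r = 0.827 without livers 3 and 4. Acacb with Srebf1 had r = -0.872 (exact permutation p = 0.115, adjusted p = 0.666) and rho = -0.429 (exact p = 0.419). That value rests on liver 3, since r was -0.151 without livers 3 and 5 and 0.296 without liver 3.

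**Figure D5:**
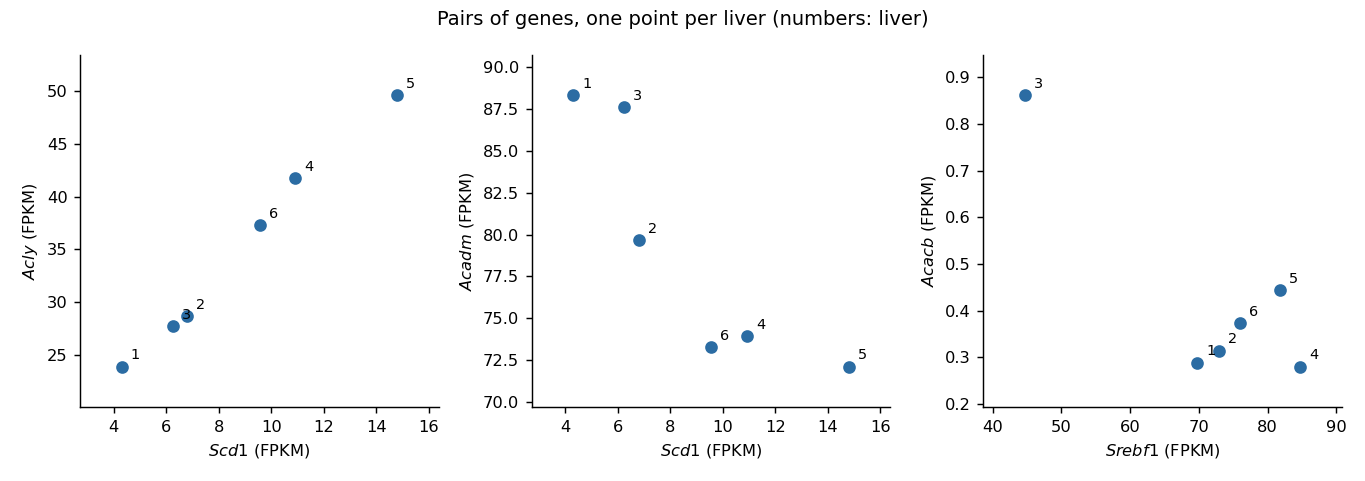
FPKM of 3 pairs of genes on linear axes that do not start at 0, with 1 numbered point per liver. Scd1 and Acly rise together, Acadm is lower where Scd1 is higher in FPKM (in TPM the r is -0.07), and liver 3 lies alone in the plot of Acacb against Srebf1.

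Acadm, 1 of the 12 oxidation genes, encodes the medium-chain acyl-CoA dehydrogenase and was lower in FPKM in livers with more Scd1. It measured 88.3, 79.7, 87.6, 74.0, 72.1 and 73.3 FPKM in livers 1 to 6. Livers 1, 2 and 3 were the 3 highest, as for Me1, again without a count over all genes. With Scd1 its r was -0.921 (exact permutation p = 0.00833, adjusted p = 0.493), rho was -0.943 (exact p = 0.0167), and r without livers 1 and 5 was -0.905. With each liver left out in turn r ran from -0.956 to -0.872, and without liver 1 the exact permutation p was 0.05, at the threshold. In TPM the r was -0.07 (exact permutation p = 0.896). In the sum used for TPM, the short gene Gm23935 alone holds 122687 of 551510 FPKM in liver 1. With the sum taken over genes of at least 200 bases r was -0.818 (exact permutation p = 0.0458). Of the 12 oxidation genes, 2 reached an exact p under 0.05 with a negative r with Scd1 and 0 with a positive one. Acadm is 1 of those 2, so its r does not stand for the list. A positive r was found for 6 of the 12, and the median r over the 12 was 0.06. Of all 11082 genes, 11.4% reached an exact p under 0.05 with Scd1 in either direction, and 51.3% had a positive r.

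Of the 7 expressed genes on the list of acetyl-CoA and NADPH supply, 5 had a positive r with Srebf1 and 2 reached an exact p under 0.05, Idh1 and the citrate synthase gene Cs. Of all 11082 genes, 53.6% had a positive r with Srebf1 and 15% reached an exact p under 0.05. The other NADPH sources had lower values. G6pdx had r = -0.52 with Srebf1 (exact permutation p = 0.301, adjusted p = 0.795) and rho = -0.09 (exact p = 0.919), with r = 0.277 without livers 3 and 4. Pgd had r = 0.211 (exact permutation p = 0.643, adjusted p = 0.925) and rho = 0.371 (exact p = 0.497), with r = -0.383 without livers 3 and 4. For Idh1, r with Srebf1 was 0.957 (exact permutation p = 0.0139, adjusted p = 0.522), rho was 0.886 (exact p = 0.0333), and r without livers 3 and 4 was 0.949. Without liver 3 alone it was 0.719 (exact permutation p = 0.133).

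The cholesterol genes shared the low value of Srebf1 in liver 3. All 8 had their lowest value in liver 3, as did 26.3% of all 11082 expressed genes. Among the 8, Fdps was close to the floor, with 0 fragments in liver 3 and no more than 9 in any liver. The sum of the 8 was 48.1 FPKM in liver 3, against 68.9 to 94.4 in the others. All 7 that were expressed at a median of at least 1 FPKM had a positive r with Srebf1 (median 0.81) and with Fasn (median 0.77). Of all 11082 genes, 53.6% had a positive r with Srebf1 and 52.1% with Fasn. An exact p under 0.05 was reached by 1 of the 7 with Srebf1 and by 2 with Fasn. Of all 11082 genes, 15% did so with Srebf1 and 3.47% with Fasn. For the cholesterol synthesis gene Hmgcs1, r with Srebf1 was 0.832 (exact permutation p = 0.111, adjusted p = 0.663) and rho was 0.371 (exact p = 0.497). It fell to -0.25 without liver 3 and to -0.05 without livers 3 and 4.

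The gene most like Fasn in its pattern over 6 livers was Itga6, which encodes an integrin subunit. It was chosen among 1702 protein-coding genes with a median of at least 5 FPKM and a highest liver at least 1.5 times the lowest. It measured 4.14, 6.82, 3.77, 4.87, 6.68 and 5.47 FPKM in livers 1 to 6, in the same order of livers as Fasn. Its r was 0.987 (exact permutation p = 0.00139, adjusted p = 0.493), rho was 1 (exact p = 0.00278), and r was 0.987 without livers 2 and 3. Others among the 5 highest were Srbd1 (0.881), Ugt2b35 (0.866) and the isoprenoid synthesis gene Idi1 (0.865). They were picked as the highest of 1702, so their r values are a description.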

How the data were processed

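RNA-seq of whole livers was read from 1 table of 54532 genes. The FPKM values were deposited by the authors, and none of the 6 column names matches a sample title, so the columns form 1 group of livers. HISAT2 2.0.5, featureCounts 1.5.0-p3 and DESeq2 1.20.0 and the mm10 build are named in the submitters' processing notes, with no role given there. FPKM times listed length came out as whole fragments, within a tolerance of 0.01, for 100% of values. Those fragments gave the depth of 14859569 to 18796842 per liver, and the divisors matched median-of-ratios size factors, so the columns had been scaled together.

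Python 3.11.15 with numpy 2.4.6, scipy 1.17.1 and pandas 2.3.3 was used. Pearson's r was computed on log2(FPKM + 1) and tested by exact permutation, with Benjamini-Hochberg adjustment over 110775 pairs of the 10 genes with genes at a median of at least 1 FPKM. The code was tested on simulated data. No mean or SD is given, because the livers hold both genotypes. Each permutation p-value measures how extreme r was among the 720 pairings of the livers. It treats the livers as exchangeable, although they hold both genotypes. Where nothing says that samples came from separate animals, the p-values do not reach beyond these 6 samples. Genes named are the 10, those on 16 lists, and the 5 most like Fasn by the stated rule. Some genes of the lists and of these 5 are not reported here. Gm23935 and the genes that overlap exons were named after their values were seen. The 10 genes and the lists were chosen with earlier results of these data known. Alternatives changed the pseudocount, scaling, length, correlation and the livers included.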

Additional observations from a re-analysis of the deposited data

Results flagged for a closer look

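Of 21 genes examined over the 6 livers, 5 had a highest or lowest liver whose gap to the next, as a share of the whole range, exceeded Dixon's 95% critical value. Chance gives about 1 such gene in 20. Of all 11082 expressed genes, 9.60% exceeded it, 4.602% with liver 1 apart and 3.71% with liver 3 apart. Among the 10 fatty acid synthesis genes, 3 did so: Acaca in its lowest liver, liver 1, at 0.754; Acacb in its highest liver, liver 3, at 0.718; and Srebf1 in its lowest liver, liver 3, at 0.6253, just above the limit. Scd2 in its highest liver, liver 3, gave 0.758, and Srebf2 in its lowest liver, liver 3, gave 0.701. In 4 of the 5 the liver was liver 3, which lay farthest out on the first principal component, and in the other it was liver 1, farthest out on the second. The cause was not tested.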

How the results depend on the processing

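Of 410 alternative values for 36 results, 369 kept their direction and side of the threshold or stayed close in size, 16 became weaker, 4 stronger, 12 moved and 9 reversed. Some of the 369 had little or no room to change. Median-of-ratios scaling nearly repeats the scaling already in the values. A fold range is the same without a liver that is neither its highest nor its lowest. A correlation also counted as kept where r moved far without a change of sign or side. Scaling to TPM changed most: 5 pairs passed in place of 2, 34 of 45 were positive in place of 22, 1 correlation with Fasn passed in place of 0, and r turned to 0.0773 for Fasn with Elovl6 and 0.00639 for Fasn with Me1. TPM over genes of at least 200 bases, chosen after seeing the data, left 1 pair past the threshold and 24 positive. The count of pairs was 4 by Spearman's rho, 1 after division by total fragments (also chosen later) and 1 to 3 with a liver left out (1 without liver 1 or 4, 3 without liver 3 or 6). Leaving out a liver moved r from -0.457 to 0.183 for Fasn with Me1, from -0.363 to 0.938 for Fasn with Mlxipl, from -0.712 to 0.620 for Fasn with Acacb, from -0.638 to 0.141 for Fasn with Elovl6 and from -0.949 to 0.296 for Acacb with Srebf1. The summed level of 142.5 FPKM became 332.0 in TPM and 181.0 with the longest transcript, both by their construction. TPM moved every gene of liver 1 by -0.30 on the log2 scale relative to the mean of the livers. Without a minimum level, 7.04% of pairs passed in place of 8.13%. No paired analysis was possible because no column is tied to a sample or genotype. With 6 livers, the lowest adjusted permutation p was 0.493. Depth limits Acacb and Thrsp most.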

Other observations

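The genes that feed or use the pathway had levels of their own. Khk, Gpd1 and Tkfc, listed here as glucose-responsive targets, had medians of 145.6, 140.9 and 139.3 FPKM. Pklr, the liver pyruvate kinase gene and a known ChREBP target, had 36.7 FPKM. Among triglyceride genes, Dgat2 had a median of 149.4 FPKM and Dgat1 5.46 FPKM, while Pnpla3, a lipid droplet gene known to follow SREBP-1c, had 0.904 FPKM. Nr1h3, which encodes the liver X receptor alpha, had 36.1 FPKM and its partner Rxra 72.2 FPKM. Mlycd, whose product breaks down malonyl-CoA, had a median of 29.6 FPKM, above both carboxylase genes.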
